A study of Homo sapiens with 8 samples.

Results

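Cystatins are small protein inhibitors of cysteine proteases. The genes described here are the 7 family members CST1, CST2, CST3, CST4, CST6, CSTA and CSTB, of 19892 genes in the table. They were taken by name, and the family was chosen by measured values, the fall of CST4 and CST3 RNA in this contrast, so the RNA contrast of these genes is given as a description. MDA-MB-231 cells, an established human line of triple-negative breast cancer, received control siRNA in one arm and siRNA to ADAR1 in the other, ADAR1 being the RNA editing enzyme encoded by ADAR, which turns adenosine into inosine in double-stranded RNA. Each siRNA gave 2 Input libraries of longer RNA fragments, read here as RNA levels, and 2 Ribo-seq libraries of fragments protected by ribosomes (footprints), 8 libraries in 4 groups. All 8 came from the same line, with no other allele, drug or time point in the labels. The model is a single cell line. The labels do not state whether replicates were grown as separate cultures, and p-values therefore reflect the spread of these libraries, possibly only technical. In bulk libraries, fewer cells with a transcript and less of it per cell cannot be told apart.

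As background, family 2 cystatins (CST1, CST2, CST3, CST4 and CST6) carry a signal peptide and are secreted, whereas CSTA and CSTB, called stefins, stay in the cytosol and nucleus. A wedge formed by the N-terminus and a pair of hairpin loops plugs the active site cleft of papain-like proteases, chiefly the lysosomal cysteine cathepsins. Some family 2 members, CST3 and CST6 among them, also block legumain, through a separate site. CST1, CST2 and CST4 encode the closely similar cystatins SN, SA and S, first known from saliva, and CST1 is often raised in tumours. CST3 encodes cystatin C, made by nearly all nucleated cells and used in serum as a marker of kidney filtration.

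Input libraries held 15732757 to 17153716 estimated counts and Ribo-seq libraries 10492223 to 14875465. ADAR itself stood at 106.2 and 110.2 TPM (a level scaled to gene length and library total) in the control Input libraries. With ADAR1 siRNA it stood at 14.8 and 30.6 TPM. Its RNA log2 fold change of -2.26 ± 0.32 (SE) did not pass an adjusted p of 0.05 (edgeR adjusted p = 0.0527). ADAR footprints stood at 19.1 and 20.3 TPM in control Ribo-seq and at 1.55 and 8.41 TPM with ADAR1 siRNA. Their log2 fold change was -2.04 ± 0.47 (edgeR adjusted p = 0.0485), and the 2 treated libraries lay far apart. The 6 markers of the line (VIM, CD44, EGFR, KRT18, AXL and CAV1) lay between 133.8 and 4694 TPM in every Input library. Among immune markers, CD3E was at 0 in 3 of the 4 Input libraries and CD14 reached at most 1.91 TPM there, and 3 endothelial markers summed to at most 4.41 TPM. Of the epithelial junction genes, CDH1 reached at most 0.15 TPM in Input and EPCAM stood at 13.5 and 13.3 TPM in the controls and at 21.0 and 14.1 TPM with ADAR1 siRNA. ESR1, PGR and FOXA1 stood under 0.2 TPM and ERBB2 between 29.5 and 35.5 TPM.

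Of the members, 4 lie in one cluster on chromosome 20 (GRCh38.p14): CST3 (NCBI gene 1471) at chr20:23626706-23637955, CST4 (1472) at chr20:23685640-23689038, CST1 (1469) at chr20:23747562-23750935 and CST2 (1470) at chr20:23823769-23826729. CST6 (1474) lies at chr11:66012008-66013505, CSTA (1475) at chr3:122325248-122341969 and CSTB (1476) at chr21:43773950-43776308. CST5, a further gene of the cluster, had 0 counts in all 4 Input libraries, which allows up to 0.175 to 0.191 CPM (counts scaled to the library total), whereas CST3 was among the highest 244 of 19892 genes in both control Input libraries. The sequences below set the CST3 promoter beside that of CST5, a gene of the same cluster with no Input counts. Promoter activity was not measured. They are the 250 bases before each transcription start, from RefSeq's table for GRCh38.p14 (both on the minus strand, chr20:23637956-23638205 for CST3 and chr20:23879749-23879998 for CST5), with each CpG in capitals.
CST3: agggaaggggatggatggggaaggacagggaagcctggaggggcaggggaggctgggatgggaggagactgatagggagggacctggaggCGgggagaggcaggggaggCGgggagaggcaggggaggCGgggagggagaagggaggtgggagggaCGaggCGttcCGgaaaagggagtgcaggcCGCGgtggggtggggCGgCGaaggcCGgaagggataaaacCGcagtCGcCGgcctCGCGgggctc
CST5: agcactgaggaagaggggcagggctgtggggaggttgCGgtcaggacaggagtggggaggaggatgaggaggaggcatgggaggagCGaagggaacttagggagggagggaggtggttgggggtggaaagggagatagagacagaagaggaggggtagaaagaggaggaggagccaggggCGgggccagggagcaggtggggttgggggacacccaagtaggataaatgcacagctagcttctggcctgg
The CST3 stretch holds 16 CpGs and the CST5 stretch 3, against a median of 11 over 27305 promoters. Both strands were searched for motifs spelled exactly. TATAAA, the core of a TATA box, was in neither stretch and in 11.1% of all promoters. GGGCGG, the core of a GC box, was in both and in 42.3% of all. The letters GGATAAA, chosen after the sequences were read, begin 34 bases before the CST3 start and 30 bases before the CST5 start, and 2.29% of all promoters hold them. These matches describe letters, not binding. For CST1, CST2, CST4, CST6, CSTA and CSTB no promoter is shown.

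CST4 and CST3 RNA fell with ADAR1 siRNA, and the other 4 tested members did not pass the test. CST4 stood at 151.6 and 161.8 TPM in the control Input libraries and at 55.0 and 62.8 TPM with ADAR1 siRNA. Both ADAR1 siRNA libraries were thus far below both controls, at 35.1% and 40.1% of the control mean, and the edgeR estimate was a log2 fold change of -1.42 ± 0.12 (SE, n = 2 libraries per group). CST3 stood at 488.7 and 486.9 TPM with control siRNA and at 316.2 and 317.4 TPM with ADAR1 siRNA, a log2 fold change of -0.62 ± 0.07. Its replicates nearly coincided within each group. ADAR stood at 13.7% of its control mean in Input replicate 1 and 28.3% in replicate 2. In the same order CST3 stood at 64.8% and 65.1%, CST1 at 46.8% and 72.6%, and CST2 at 86.8% and 19.8%. CSTB stood at 78.4% and 79.1%, and CST6 at 83.8% and 93.3%. Any relation of these levels to that of ADAR was not tested.

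**Figure D1:**
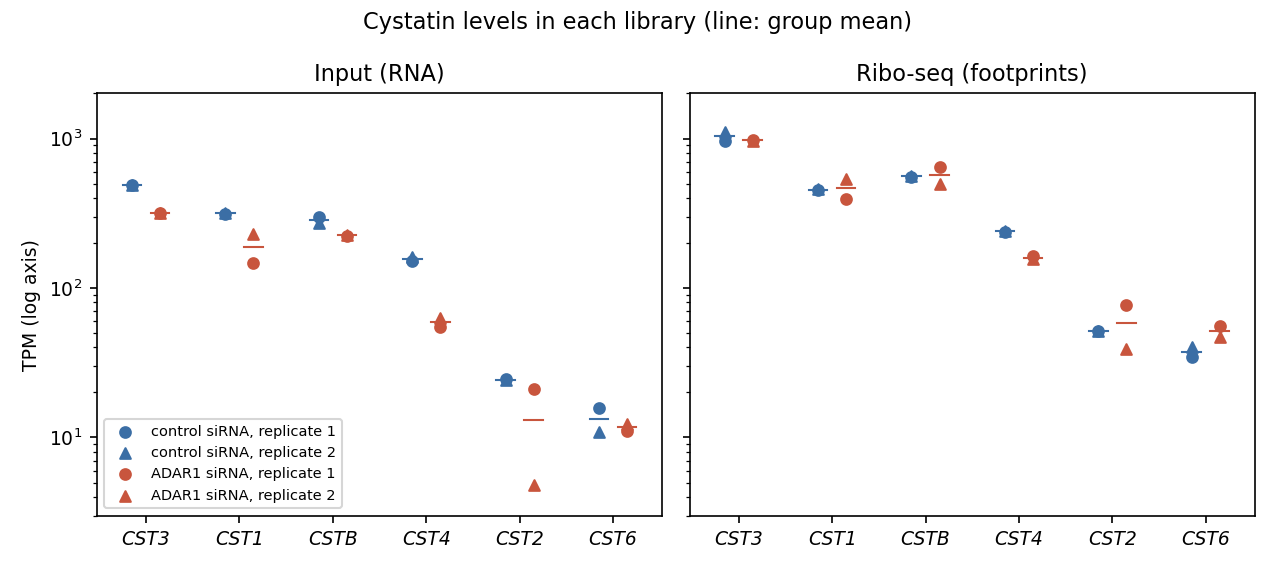
TPM of 6 cystatins in each Input library (left) and Ribo-seq library (right) on a log axis; blue points are control siRNA, red points ADAR1 siRNA, circles replicate 1, triangles replicate 2, and short lines group means. In Input the red points of CST3, CST1, CSTB, CST4 and CST2 lie below the blue ones, and in Ribo-seq those of CST4 alone do.

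CST1, the cystatin SN gene, stood at 314.5 and 318.1 TPM in control Input and at 148.1 and 229.6 TPM with ADAR1 siRNA. Both treated libraries were below the controls but far apart from each other (log2 fold change -0.75 ± 0.21). Leaving out ADAR1 siRNA Input replicate 1 moved the CST1 estimate to -0.44 and leaving out replicate 2 moved it to -1.15, and DESeq2 called it (adjusted p = 0.00369). CST2, the cystatin SA gene, stood at 24.6 and 24.3 TPM with control siRNA and at 21.2 and 4.83 TPM with ADAR1 siRNA, so that replicate 2 set most of its estimate of -0.95 ± 0.53. Without ADAR1 siRNA Input replicate 1 the CST2 estimate was -2.28, and without replicate 2 it was -0.27. CSTB, the gene of stefin B, whose loss causes a progressive myoclonus epilepsy, stood at 299.2 and 273.2 TPM in the controls and at 224.3 and 226.5 TPM with ADAR1 siRNA (-0.36 ± 0.08). CST6, the gene of cystatin E/M, which many breast tumours silence, was low: 60 and 45 counts in control Input and 43 and 52 with ADAR1 siRNA, groups that overlapped (-0.18 ± 0.29). CSTA had 0 counts in all 4 Input libraries, and at most 5 in a Ribo-seq library, so it entered no test.

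In the RNA test 6 of the 7 members passed the filter on low counts, and CST4 and CST3 fell at the threshold, an adjusted p of 0.05, where 22 of 12644 genes (0.174%) fell. These are the genes by which the family was picked, so nothing is read from that count. CST3 stood just inside the threshold (edgeR adjusted p = 0.0488), and CSTB was the nearest member outside it (0.0796). On the TPM scale the groups did not overlap for 5 of the 6, all lower, against 27.9% of tested genes, and 6 of 6 estimates were under 0, against 49.4%. These counts also include CST4 and CST3, and CST1, CST2 and CST4 may share fragments, so nothing is read from them either. Both calls were lost with either control left out: without control Input replicate 1 or replicate 2 the adjusted p was 0.0948 or 0.178 for CST4 and 0.395 or 0.350 for CST3, with estimates of -1.47 or -1.38 and -0.62 in either case. The CST3 call was also lost with upper-quartile scaling (adjusted p = 0.0542), limma on TPM (0.0621 and 0.0641) and edgeR over all 8 libraries (0.111).

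CST1, CST2 and CST4 are close paralogs, and their counts were fractional in all 8 libraries, while those of CST3, CST6, CSTA and CSTB were whole (within 1e-06). Fragments may thus have been shared between genes, and the 3 were also summed. The sum stood at 490.6 and 504.1 TPM in control Input and at 224.3 and 297.2 TPM with ADAR1 siRNA, lower in both libraries. Its edgeR log2 fold change was -0.94 ± 0.15 (adjusted p = 0.0646, not past the threshold). Within the sum, the share of CST4 was 30.9% and 32.1% in control Input and 24.5% and 21.1% with ADAR1 siRNA, and in footprints 31.9% and 32.3% against 25.8% and 21.3%. CST4 thus held a smaller part of the sum in all 4 ADAR1 siRNA libraries. The shares of CST1 and CST2 moved against each other between the treated replicates: CST2 held 9.45% of the sum in Input and 12.2% in Ribo-seq of replicate 1, and 1.63% and 5.33% in replicate 2, where CST1 held 77.2% and 73.4%. How fragments were assigned among the paralogs was not tested, so their separate values are uncertain.

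**Figure D2:**
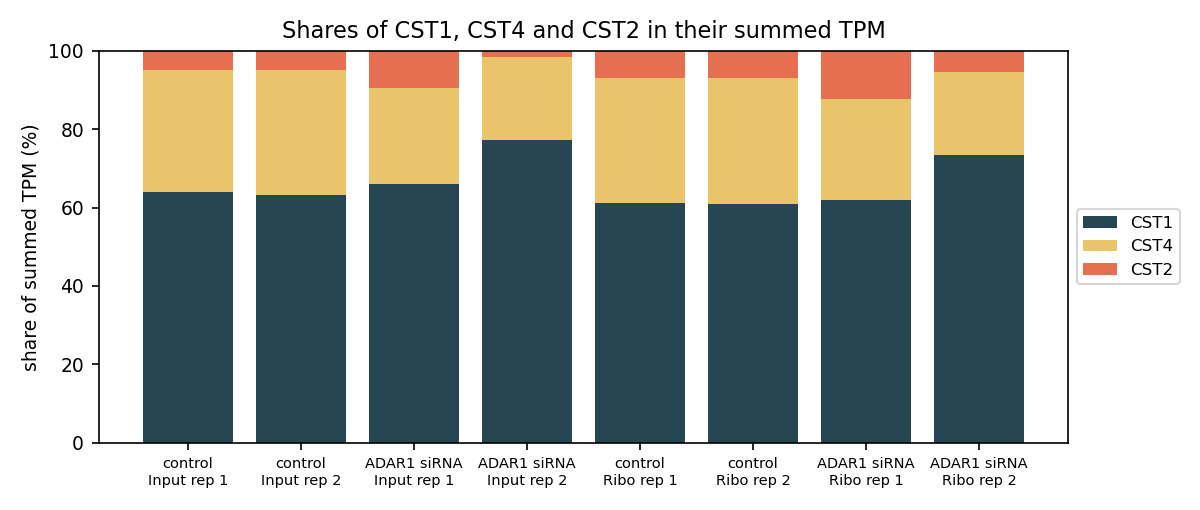
Shares (percent) of CST1, CST4 and CST2 in the summed TPM of the 3 genes, one bar per library. The CST4 part is near 31% to 32% in the 4 control libraries and 21.1% to 25.8% in the 4 ADAR1 siRNA libraries, and the CST2 part is largest in ADAR1 siRNA replicate 1 of both assays.

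Ribosome footprints were not used to choose the members, and by edgeR no member changed in them. Footprints of CST3 stood at 961.5 and 1111 TPM in control Ribo-seq and at 982.2 and 960.0 TPM with ADAR1 siRNA. The groups overlapped, and the edgeR log2 fold change was 0.0065 ± 0.14 with a 95% interval from -0.31 to 0.33 (adjusted p = 0.983). CST4 was again the lowest against its controls, with 235.6 and 242.2 TPM against 162.9 and 155.6 TPM. Both treated libraries lay below both controls, and the log2 fold change of -0.49 ± 0.15 did not pass (edgeR adjusted p = 0.0887). The CST4 footprint call depended on the setting. It passed with DESeq2 (adjusted p = 0.0279), with edgeR over all 8 libraries (0.0373) or without the low-count filter (0.0398), and did not with limma-voom (0.0927), upper-quartile scaling (0.120), RLE scaling (0.0699) or limma on TPM (0.0932 and 0.0959). Leaving out ADAR1 siRNA Ribo-seq replicate 1 or 2 gave an edgeR adjusted p of 0.000885 or 0.00965, and leaving out control replicate 1 or 2 gave 0.434 or 0.623, with estimates from -0.60 to -0.42.

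CST1 footprints stood at 451.9 and 456.1 TPM with control siRNA and at 392.3 and 536.1 TPM with ADAR1 siRNA, on either side of the controls (0.12 ± 0.15, edgeR adjusted p = 0.677). CST2 showed the opposite split, 51.9 and 51.3 TPM against 77.0 in replicate 1 and 38.9 TPM in replicate 2 (0.29 ± 0.30, edgeR adjusted p = 0.597). Summed over CST1, CST2 and CST4, the footprint change was -0.04 ± 0.13, with a 95% interval from -0.33 to 0.26 (edgeR adjusted p = 0.895). CSTB stood at 553.1 and 565.6 TPM against 644.9 and 494.4 TPM, groups that overlapped (0.14 ± 0.18, edgeR adjusted p = 0.697). CST6 footprints were higher in both treated libraries, 34.4 and 40.4 TPM against 55.8 and 47.3 TPM. Its log2 fold change of 0.57 ± 0.19 did not pass (edgeR adjusted p = 0.116), nor did DESeq2 call it (0.110), while it passed without the low-count filter (0.0401). For CST6, leaving out ADAR1 siRNA Ribo-seq replicate 2 gave 0.71 (edgeR adjusted p = 0.000746) and leaving out replicate 1 gave 0.36 (0.177). Without control replicate 1 or 2 its edgeR adjusted p was 0.502 or 0.511.

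By edgeR 0 of the 6 tested members changed in footprints, where 3.54% of 12000 genes did. CST4, lower, and CST6, higher, had an unadjusted p under 0.05, as did 11.3% and 12.7% of genes in those directions, and DESeq2 called 1 member among 978 genes, limma-voom 0 among 250. The groups did not overlap for 1 member that was lower and 1 that was higher, against 31.2% and 23% of tested genes. The count of 0 became 4 without ADAR1 siRNA Ribo-seq replicate 2 and 1 without replicate 1, as the count over all genes went from 425 to 3415 and 1868. In such fits the lone library is assumed to vary like the other group.

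**Figure D3:**
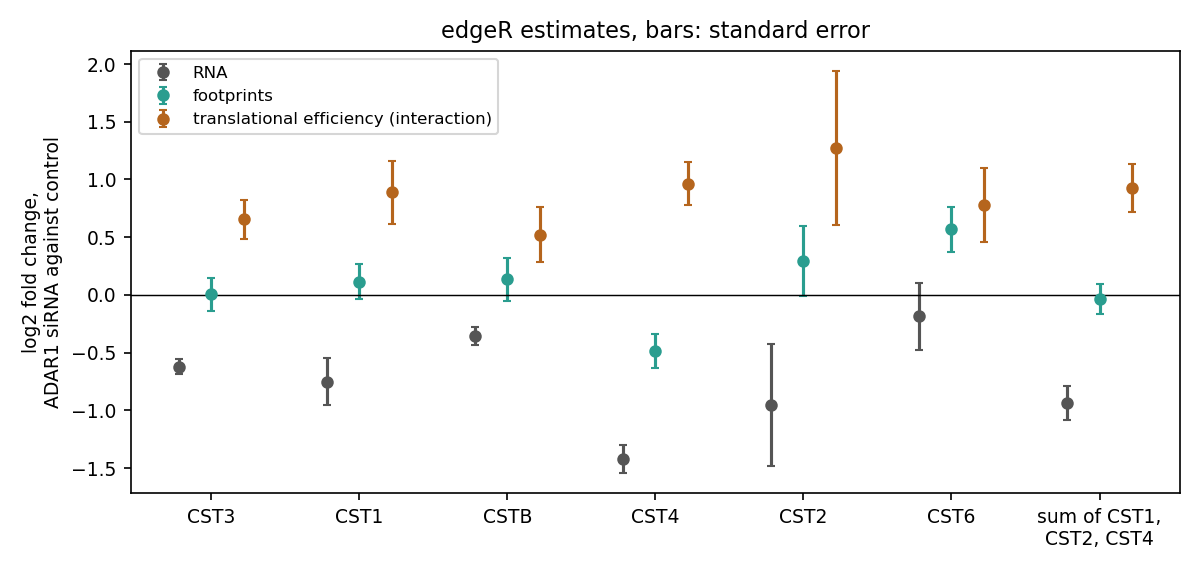
Log2 fold change of ADAR1 siRNA against control by edgeR for RNA (grey), footprints (green) and translational efficiency (brown), with standard errors as bars, for 6 cystatins and the sum of CST1, CST2 and CST4. RNA estimates lie below 0 from -1.42 to -0.18, translational efficiency estimates above 0 from 0.52 to 1.27, and footprints from -0.49 to 0.57.

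Translational efficiency, footprints per RNA, was high for the tested cystatins in the control siRNA libraries, and its estimates with ADAR1 siRNA were higher but did not pass the edgeR threshold. In the authors' deposited table CST3 had a ratio of Ribo-seq to Input TPM of 1.97 and 2.28 in the controls and of 3.11 and 3.02 with ADAR1 siRNA. For CST4 the deposited ratios were 1.55 and 1.498 against 2.96 and 2.48. CST1 stood at 1.44 and 1.43 against 2.65 and 2.33 in that table, with its treated libraries apart from the controls as for the genes above. The deposited ratios of CSTB were 1.85 and 2.07 against 2.88 and 2.18, a smaller gap. CST2 had deposited ratios of 2.11 and 2.12 against 3.63 and 8.06, the last resting on 25.6 Input counts, and CST6 had 2.20 and 3.70 against 5.01 and 3.82. For scale, the median ratio over the genes of the test was 0.363 and 0.384 in the controls and 0.317 and 0.388 with ADAR1 siRNA. All 6 members stood above 88.5% of those genes in both control libraries, from CST1 (rank 1442 of 12575 in replicate 2) to CST6 (rank 398).

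The change in translational efficiency was estimated as the interaction of assay and siRNA over all 8 libraries. It contains the RNA change that picked the family, so it is a description too. Estimates were 0.96 ± 0.19 for CST4, 0.65 ± 0.17 for CST3, 0.89 ± 0.27 for CST1, 1.27 ± 0.67 for CST2, 0.78 ± 0.32 for CST6 and 0.52 ± 0.24 for CSTB, beside a median of 0.09 over all 12953 genes. Summed, CST1, CST2 and CST4 gave 0.93 ± 0.21 (edgeR adjusted p = 0.0567, not past the threshold), a value that does not depend on how fragments were divided among the 3. The deposited ratios did not overlap for 6 of 6 tested members, all higher with ADAR1 siRNA, against 24.6% of genes. None of the 6 passed the edgeR threshold, which 0.0463% of genes passed, and CST4 came nearest (adjusted p = 0.0534). At an unadjusted p under 0.05 there were 4 by edgeR (CST1, CST3, CST4 and CST6), all higher, as were 13.2% of genes, and after adjustment DESeq2 called 3 (CST1, CST3 and CST4) among 967 genes and limma-voom 0 of any gene. Without ADAR1 siRNA Ribo-seq replicate 2 edgeR called 4 among 2252 genes, and without replicate 1 it called CST4 alone of the members among 507 genes, where with every library it called 6 genes.

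**Figure D4:**
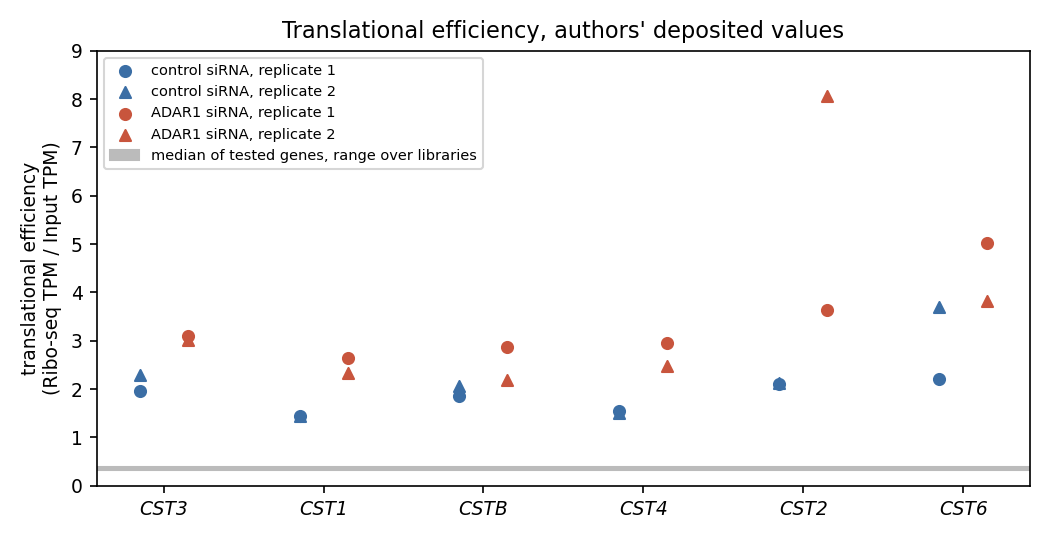
Translational efficiency (Ribo-seq TPM divided by Input TPM) of 6 cystatins as the authors deposited it; blue points are control siRNA, red points ADAR1 siRNA, circles replicate 1, triangles replicate 2. Every red point lies above the blue points of its gene, and all lie above the grey band that spans the library medians of the tested genes (0.317 to 0.388).

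Among the proteases that cystatins inhibit, CTSZ and CTSH rose in footprints and none changed in RNA. The list of 11 cysteine cathepsins and legumain had 12 of 12 members tested in RNA, where 0 changed by edgeR, with a median log2 fold change of -0.020 beside 0.0037 over all genes. In footprints 2 of 11 tested members rose, where 1.88% of all genes rose, and the list median was 0.44 beside 0.05. CTSZ, a carboxypeptidase, stood at 167.0 and 176.8 TPM in control Ribo-seq and at 240.2 and 288.1 TPM with ADAR1 siRNA, a log2 fold change of 0.71 ± 0.14 (edgeR adjusted p = 0.0393). CTSH, an aminopeptidase, stood at 11.98 and 14.2 against 18.3 and 22.7 TPM in footprints, with a log2 fold change of 0.77 ± 0.18 (edgeR adjusted p = 0.0490). In both genes the treated libraries lay above both controls. Both calls were lost without control Ribo-seq replicate 1 (adjusted p = 0.233 for CTSZ and 0.287 for CTSH) or replicate 2 (0.376 and 0.266), with log2 values from 0.66 to 0.89. The CTSH call was also lost with RLE scaling (adjusted p = 0.0529), limma-voom (0.0545) and limma on TPM (0.144 and 0.142), and that of CTSZ with limma on TPM (0.100 and 0.105).

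The other abundant members had footprint estimates above 0 that did not pass: 0.54 ± 0.13 for CTSB (edgeR adjusted p = 0.0546), 0.44 ± 0.15 for CTSL (0.108) and 0.26 ± 0.14 for CTSC (0.274). The CTSB call depended on the setting. It passed with DESeq2 (adjusted p = 0.0150), and by edgeR with upper-quartile scaling (0.0466), no low-count filter (0.00917) or all 8 libraries (0.0230). It did not pass by edgeR with RLE scaling (0.0555), nor by limma-voom (0.0582) or limma on TPM (0.121 and 0.122). CTSL passed by edgeR over all 8 libraries (0.0286). CTSB and CTSL are endopeptidases of the lysosome, and CTSC trims dipeptides and activates granule serine proteases. LGMN, legumain, stood at 58.6 and 57.9 TPM in control Ribo-seq against 59.3 and 29.3 TPM. In translational efficiency 12 of 12 estimates of the list were above 0, as were 57.3% of all genes, with a median of 0.42, and 0 passed by edgeR. In RNA 6 of the 12 estimates were below 0, as were 49.4% of all genes. LGMN was among them (81.5 and 87.1 TPM in control Input against 76.1 and 41.0 TPM). For the cystatins it was 6 of 6, but that family was picked by the fall of CST4 and CST3 RNA, so the lists are not alike. The difference between the lists was not tested.

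**Figure D5:**
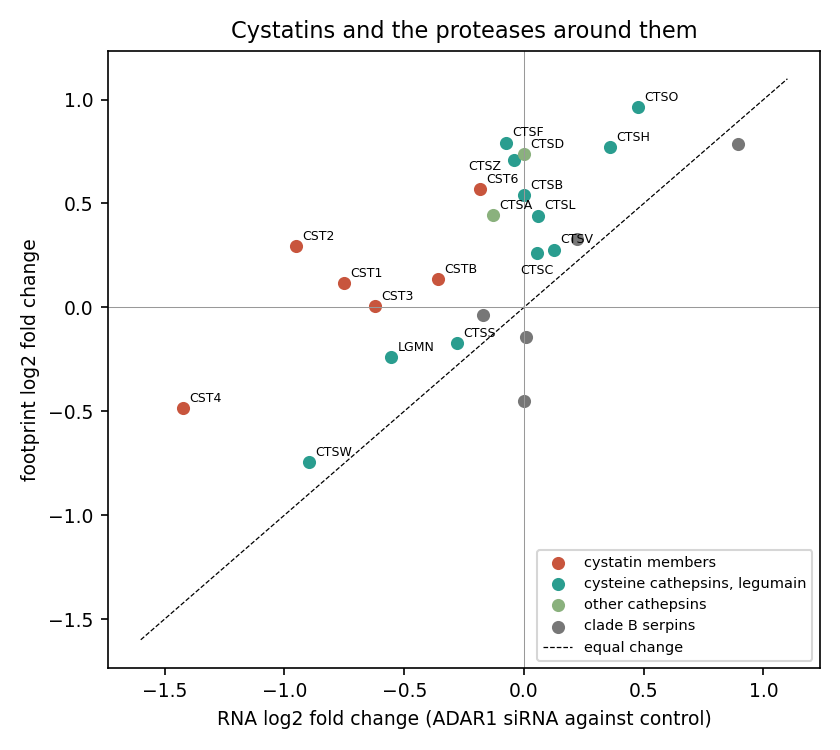
Log2 fold change of footprints against that of RNA (edgeR, ADAR1 siRNA against control) for genes tested in both; red points are cystatins, dark green points cysteine cathepsins and legumain, light green points other cathepsins, grey points clade B serpins, and the dashed line marks equal change. The cystatins lie left of 0 and above the line, and most cathepsins lie near 0 on the RNA axis. Cathepsin footprint values run from -0.75 (CTSW, RNA -0.90) to 0.96 (CTSO, RNA 0.48).

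The rest of the cystatin family was nearly absent. Of 7 further family 2 genes, only CST7, the gene of cystatin F, known from immune cells, passed the count filter. CST7 stood at 7.62 and 7.10 TPM in control Input against 4.82 and 5.38 TPM, and at 2.78 and 3.70 against 3.56 and 7.24 TPM in Ribo-seq. Its deposited ratio was 0.365 and 0.521 in the controls, and 0.740 and 1.35 with ADAR1 siRNA. CST5 had 5 counts over all 8 libraries, CST8, CST9, CST9L, CST11 and CSTL1 had 0, and among the plasma proteins with cystatin domains KNG1, AHSG and FETUB had 0 and HRG 1.

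The genes whose levels varied most like CST4 and CST3 were sought among 9735 genes by Pearson's r over the 8 libraries, each taken as its log2 CPM minus the control mean of its assay. The libraries share the siRNA groups and 4 of the 8 points are controls near 0, so r describes likeness only. THEM6 was closest to CST4 (r = 0.989, log2 fold change -1.04 in RNA and -0.45 in footprints), followed by HAGH (0.980), CAPNS1 (0.978), FLOT1 (0.975) and CCDC107 (0.974). Likeness by r leaves out the size of the change. In RNA the log2 fold changes of HAGH, CAPNS1, FLOT1 and CCDC107 were -0.46, -0.20, -0.17 and -0.41, against -1.42 for CST4. SHARPIN was closest to CST3 (r = 0.992; -0.44 in RNA and 0.02 in footprints), followed by GGT5 (0.989), LRCH4 (0.986), CSPG4 (0.985) and PNKD (0.984). CST3 and CST4 had r = 0.918 with each other. CSTB, CST1, CST2 and CST6 had 0.845, 0.845, 0.707 and 0.535 with CST3. With CST4 the same genes had 0.691, 0.804, 0.577 and 0.196.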

How the data were processed

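The authors deposited 1 table with estimated counts per gene (not all whole), TPM, and translational efficiency as the ratio of Ribo-seq to Input TPM. Per the submitters' processing notes, the tools included featureCounts, STAR, Bowtie2 and cutadapt, and the build was GRCh38 (hg38). Their versions, order and strand setting were not given in the sources used. Per the labels' protocols, RNA was size-selected on gels, ligated to adapters and amplified, so counts are not independent molecules. Counts were rounded, scaled by TMM, filtered with filterByExpr and tested with edgeR 4.0.16 in R 4.3.3 (quasi-likelihood, two-sided, Benjamini-Hochberg over all genes): 4 Input libraries, 4 Ribo-seq libraries, and the interaction over all 8. SEs are the estimate divided by the square root of F. An exact permutation test of 2 against 2 cannot go under 0.333. The code was tested on simulated counts. DESeq2 1.42.0 and limma 3.58.1 served as alternatives. Members and lists were chosen with earlier results of these data known. Named genes are the members and, of each related list, those called plus the 3 with the most control Input TPM; others named are members of a count or were chosen after their values were seen. Symbols matched 19669 of 19892 gene numbers. One marker result is not reported here.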

Additional observations from a re-analysis of the deposited data

How the results depend on the processing

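Translational efficiency estimates of the 6 tested cystatins were above 0 in all 9 settings that kept every library and in all 8 that left one out, from 0.20 (CSTB) to 2.51 (CST2). Counts of calls depended on the setting, and the causes were not tested. In RNA, 32 genes changed in the main setting, 11 with CST1, CST2 and CST4 added together, 11 with upper-quartile scaling, 95 with no low-count filter, 73 with a mean count of at least 50, 436 with DESeq2, 14 in 1 fit over all 8 libraries, and 1 with limma at either TPM pseudocount (1 or 0.1). Of the cystatins 2 were called, 3 with DESeq2 (CST1 added), and 1, with CST3 lost, with upper-quartile scaling, limma on TPM or the fit over all 8. In footprints the 425 genes became 1693 with no filter, 978 with DESeq2, 250 with limma-voom, 12 and 13 with limma on TPM, and 1936 over all 8; cystatin calls went from 0 to 2 with no filter, 1 with DESeq2 and 1 over all 8. In translational efficiency the 6 genes became 854 with no filter, 2 with a mean count of at least 50, 967 with DESeq2, 0 with limma-voom and 3 with limma at a pseudocount of 1, and cystatin calls went from 0 to 3 with no filter and 3 with DESeq2. The sum of CST1, CST2 and CST4, which did not pass in the main setting (edgeR adjusted p = 0.0646 in RNA, 0.0567 in translational efficiency), passed with no filter and with DESeq2 (-0.94 and -0.94 in RNA, 0.91 and 0.91 in translational efficiency) and in no other setting that kept every library but the block, and its footprint value reversed to 0.013 with upper-quartile scaling.

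Leaving out 1 library gave 0 to 5420 genes and 0 to 5 cystatins in RNA, 77 to 3415 genes and 0 to 4 cystatins in footprints, and 0 to 2252 genes and 0 to 4 cystatins in translational efficiency. The sum ranged from -1.20 to -0.71 in RNA and from 0.63 to 1.13 in translational efficiency. CST3 footprints, near 0, reversed to -0.027 with RLE scaling, -0.027 with DESeq2 and -0.090 with limma at either pseudocount, and ranged from -0.094 (without ADAR1 siRNA Ribo-seq replicate 1) to 0.091 with a library left out, being -0.080 without control Ribo-seq replicate 1. Footprint values also crossed 0 for CST2 (-0.39 to 0.71) and CSTB (-0.16 to 0.34), lowest without ADAR1 siRNA Ribo-seq replicate 1, and for CST1 (-0.078 to 0.25), lowest without replicate 2. CST6 RNA ranged from -0.42 to 0.093, highest without control Input replicate 1, at 45 to 60 counts in a control library.

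Groups share replicate numbers, and the deposited ratios divide Ribo-seq by the Input of the same number, but the labels name no shared culture, batch or day, and with 2 numbers a group they were not taken as pairs. Differences between replicates correlated across 9736 genes at 0.419 between ADAR1 siRNA Input and Ribo-seq, 0.153 between the Ribo-seq groups, 0.0353 between the Input groups, 0.00588 between control Input and Ribo-seq, and -0.0417 and -0.0138 across siRNA and assay. In RNA and in footprints the replicate block paired control with ADAR1 siRNA libraries of the same number. In translational efficiency it paired Input with Ribo-seq libraries of the same number within each siRNA. With the replicate block, 1095 genes and 4 cystatins were called in RNA, and 2102 genes and 2 cystatins in footprints. In translational efficiency it called 1169 genes and 4 cystatins (edgeR adjusted p = 0.0167 for CST1, 0.0150 for CST2, 0.0393 for CST3 and 0.0171 for CST4). The sum of CST1, CST2 and CST4 was then -0.95 in RNA and 0.95 in translational efficiency.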

Other observations

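Cathepsins that are not cysteine proteases, which cystatins do not inhibit, and the clade B serpins, a family of mainly intracellular protease inhibitors, were described for comparison. CTSD, the aspartic protease of the lysosome, rose in footprints from 885.4 and 1015 TPM to 1474 and 1484 TPM (log2 fold change 0.74 ± 0.13, edgeR adjusted p = 0.0346), while its RNA stood at 967.7 and 955.8 against 968.0 and 977.7 TPM. The call was lost without control Ribo-seq replicate 1 (edgeR adjusted p = 0.222) or replicate 2 (0.247), and with limma on TPM (0.0845 and 0.0874). CTSA, a serine carboxypeptidase, had footprints of 85.1 and 87.2 TPM against 97.3 and 123.2 TPM and did not pass (0.44 ± 0.14, edgeR adjusted p = 0.0970), and CTSE stayed under 0.9 TPM.

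Of the 13 clade B serpins, 7 were tested in RNA and 5 in footprints, and 0 changed in either by edgeR, with medians of 0.01 and -0.04. SERPINB6, an inhibitor of cathepsin G, stood at 141.5 and 137.1 TPM in control Input against 131.8 and 125.1 TPM. SERPINB1, an inhibitor of neutrophil elastase, stood at 51.1 and 59.7 against 72.6 and 40.7 TPM, and SERPINB9, which inhibits granzyme B, at 37.4 and 33.8 against 44.8 and 37.9 TPM. Translational efficiency of the 7 tested serpins had a median log2 change of -0.09. The median was 0.84 for the tested cystatins, 0.60 for the 3 tested cathepsins that are not cysteine proteases, and 0.09 for all genes. The cystatin value contains the RNA fall of CST4 and CST3 that picked the family, so nothing is read from its rank. Of those 3 cathepsins, 2 had estimates above 0 and 1 below. The differences between the lists were not tested.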
